A study of Mus musculus with 22 samples.

Results

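Serial passage of wild-type (WT) mouse embryonic fibroblasts (MEFs) of the *S6K1* set was examined here by RNA-seq, with 4 libraries of late cells compared with 4 libraries of early cells. These were 8 of the 22 libraries of serially passaged MEFs, assigned to groups by their labels. The comparison and the gene lists below were chosen with earlier results of these data known. The early group was WT for *S6K1* at passage 3, and the late group was WT for *S6K1* at passage 8, with no drug, transgene or deletion in either. MEFs are primary cells grown from minced mouse embryos after removal of the head and viscera, here from parents heterozygous for the *S6K1* allele, and they were passaged at atmospheric oxygen until they stopped expanding. The 3 libraries of late *S6K1* knockout (KO) MEFs of the same set entered the fit to estimate the spread between libraries and are not described. A second set of WT MEFs, the *S6K1/S6K2* set, gave 4 early and 4 late libraries at the same passages and is used only to show where the passage effect differed. The labels do not say which libraries came from separate embryos or cultures, although the study describes its MEF replicates as derived from different embryos, and *P* values measure the spread between these libraries. They also give no time of culture, harvest or library preparation, so passage cannot be told apart from these.

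Cultures of embryonic fibroblasts start as a mixture of mesenchymal cells that secrete collagen, respond to serum with a burst of transcription factors and still carry the gene expression of the embryo. When mouse cells are passaged at atmospheric oxygen, oxidative damage and the *Cdkn2a* products p16 and p19Arf bring division to a halt, a state called replicative senescence. Because the tissue that remains of the embryo is minced together, such cultures can also carry macrophages, mesothelium, endothelium and muscle precursors. Their share can change with time in culture.

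Library facts bear on several results below. Total counts were 13324851 to 17314832 in early and 12118190 to 16689637 in late libraries, and 3 counts corresponded to 0.173 to 0.248 CPM (counts scaled to a fixed library total), counting error only. All levels below are CPM scaled by the TMM method, which corrects for composition, and they are compared between libraries of 1 gene but not between genes. Y-linked genes had counts in early libraries 1 and 3 and late library 3, and almost none in the other 5. The split was not only in sex-linked genes: the summed level of ribosomal protein genes was 54482 to 61768 CPM in the 3 libraries with Y-linked counts and 80371 to 108030 CPM in the 5 without. Comparisons among the libraries with Y-linked counts had a single late library and no late replicate, which limits every count of genes that passed there. The fibroblast genes *Thy1*, *Pdgfra*, *Col1a1* and *Fn1* were detected in all 8 libraries, with *Pdgfra* at 12.7 to 134 CPM. Of 29 macrophage markers, 27 were tested and 25 were higher in late MEFs, with a summed level of 644 to 1249 CPM in early and 6182 to 12863 CPM in late libraries. The part of such cells in each result was not tested. In these bulk samples fewer cells of a type and less RNA per cell cannot be told apart.

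Of 14132 genes tested, 1827 (12.9%) passed an adjusted *P* value of 0.05, 983 (6.96%) with a rise and 844 (5.97%) with a fall between passages. Among these, 1670 had no overlap between the 4 late and 4 early libraries, as did 2597 of all 14132 genes tested. Of those that passed, 678 rose by a log2 fold change above 1 and 428 fell by one below −1. The median log2 fold change of all genes was −0.04. When 1 library was left out, the count of falls moved by over 1.5 times in 3 cases, to 428 without late library 3, 479 without late library 2 and 549 without early library 2. With the Y-linked level as a covariate, 1644 genes were higher and 1623 lower. Restricting the comparison to the 5 libraries without Y-linked counts gave 1002 higher and 1098 lower, and restricting it to the 3 with them gave 291 higher and 115 lower. The percentages 6.96% and 5.97% are the background against which the gene groups below are read. Because those groups were listed with earlier results of these data known, their percentages are descriptions and not independent tests.

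**Figure D1:**
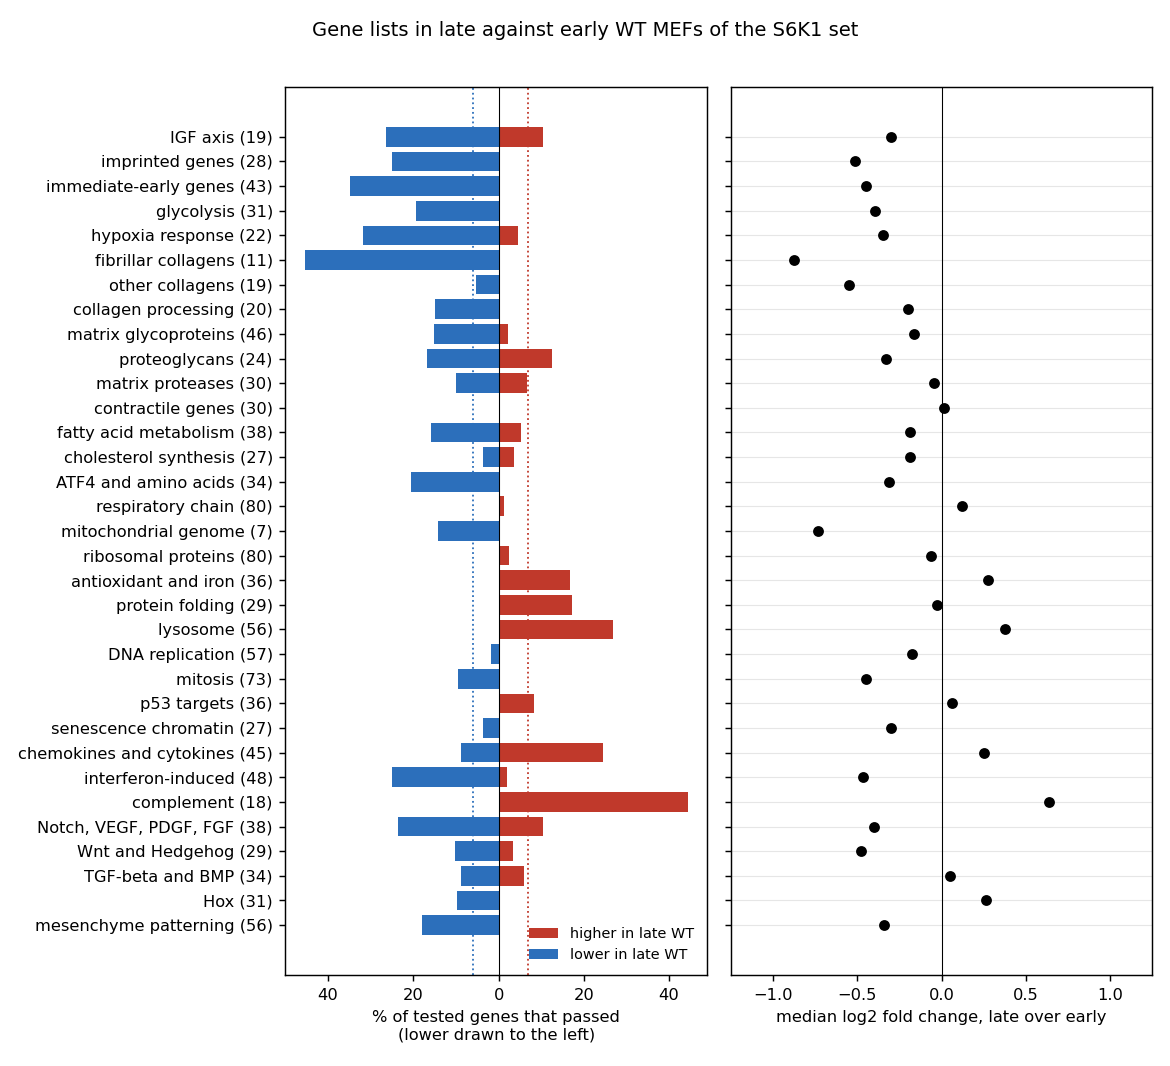
Gene lists in late against early WT MEFs, with the number of tested genes in brackets. Left, percentage of tested genes that passed, higher (red, to the right) and lower (blue, to the left), with dotted lines at the 6.96% and 5.97% of all genes. Right, median log2 fold change of the tested genes. Complement (44.4% higher) and lysosome genes (26.8% higher) stand on one side, and fibrillar collagens (45.5% lower) and immediate-early genes (34.9% lower) on the other. The complement list shares 3 genes with the macrophage markers.

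The lowest log2 fold change of all genes that passed was that of *Igf2*, the insulin-like growth factor of the embryo. *Igf2* was at 26.7, 43.7, 15.9 and 46.5 CPM in early and 0.459, 0.703, 0.280 and 0.582 CPM in late libraries, a log2 fold change of −6.05 (SE 0.42, adjusted *P* = 1.04e-05). No late library came near the lowest early one. *H19*, the imprinted non-coding RNA that neighbours *Igf2* and shares its enhancers, was at 2714, 2913, 2010 and 2125 CPM in early and 239, 277, 189 and 707 CPM in late libraries (log2 fold change −2.79, SE 0.52, adjusted *P* = 0.00432). Late library 4 was the highest of its group and still well below every early library. Of 28 imprinted genes tested, 7 (25.0%) were lower and none higher, with 14 at an unadjusted *P* under 0.05 and, in DESeq2, 1 higher and 9 lower (median log2 fold change −0.51). The 7 were *Igf2*, *H19*, *Meg3*, *Slc38a4*, *Airn*, *Igf2r* and *Usp29*, the last with an adjusted *P* of 0.0592 without early library 3. *Meg3*, the maternally expressed RNA of another imprinted domain, fell from 615 to 1628 CPM in early to 351 to 505 CPM in late libraries. *Slc38a4*, an imprinted amino acid transporter, fell from 48.0 to 75.9 CPM to 4.42 to 13.8 CPM. The early and late ranges of both genes were separate. *Mest*, *Peg3* and *Cdkn1c*, also imprinted, did not pass (log2 fold changes −1.75, −0.91 and −1.0), and neither did *Dlk1*, at 1.24.

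Genes of the insulin-like growth factor axis changed in both directions. Of 19 tested, 2 were higher and 5 lower (median log2 fold change −0.30). The 5 became 3 without early library 2, and the 2 became 1 without early library 4 or late library 4. *Igf1*, the postnatal counterpart of *Igf2*, rose from 22.9, 56.5, 48.4 and 47.4 CPM in early to 173, 187, 151 and 116 CPM in late libraries (log2 fold change 1.84, SE 0.25, adjusted *P* = 0.00051). The lowest late library, at 116 CPM, was above the highest early one. *Igf2r*, which clears IGF2 from the cell surface, fell by 0.94 on the log2 scale, and *Igf2bp2*, an RNA-binding protein of the *Igf2* message, fell by 0.68. *Igfbp2*, an IGF-binding protein, was at 17.0, 125, 56.8 and 80.7 CPM in early and 93.5, 1155, 146 and 5733 CPM in late libraries, so the groups overlapped, and late library 4 alone carried most of the difference (log2 fold change 4.67, adjusted *P* = 0.0221). Without late library 4 it was 2.74, with an adjusted *P* of 0.0602. *Igfbp5*, which binds IGFs in the matrix, was lower (log2 fold change −2.89, adjusted *P* = 0.0192), a call that was lost without early library 2 (adjusted *P* = 0.0513). *Irs2*, an adaptor of the insulin receptor, also passed as lower (−0.57), and without late library 3 its adjusted *P* was 0.112. *Mdk*, the heparin-binding growth factor midkine, was at 32.6, 127, 43.6 and 62.2 CPM in early and 4.82, 13.4, 7.72 and 5.40 CPM in late libraries (log2 fold change −3.08, SE 0.50, adjusted *P* = 0.00168).

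Immediate-early genes are transcribed within minutes of a growth factor or stress signal, without new protein synthesis, and most encode transcription factors or proteins that limit the response. In the promoters of many of them, serum response factor binds the CArG box and CREB binds the cAMP response element (CRE). The 250 bases before the gene's start are shown for 3 members that fell here, as examples of such promoters, with the CArG box of *Egr2* and *Zfp36* and the CRE of *Dusp1* in capitals (RefSeq, GRCm38.p6, 5′ to 3′ of the gene).
Egr2, chr10:67537316-67537565, plus strand: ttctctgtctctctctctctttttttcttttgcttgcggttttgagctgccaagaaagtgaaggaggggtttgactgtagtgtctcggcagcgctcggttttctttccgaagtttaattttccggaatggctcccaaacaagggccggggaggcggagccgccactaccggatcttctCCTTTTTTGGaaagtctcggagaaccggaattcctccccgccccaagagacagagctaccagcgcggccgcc
Zfp36, chr7:28379229-28379478, minus strand: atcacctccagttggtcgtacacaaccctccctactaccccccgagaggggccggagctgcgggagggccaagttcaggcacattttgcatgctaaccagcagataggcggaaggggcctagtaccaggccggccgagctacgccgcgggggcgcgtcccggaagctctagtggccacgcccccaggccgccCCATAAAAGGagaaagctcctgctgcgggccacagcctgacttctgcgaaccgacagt
Dusp1, chr17:26508473-26508722, minus strand: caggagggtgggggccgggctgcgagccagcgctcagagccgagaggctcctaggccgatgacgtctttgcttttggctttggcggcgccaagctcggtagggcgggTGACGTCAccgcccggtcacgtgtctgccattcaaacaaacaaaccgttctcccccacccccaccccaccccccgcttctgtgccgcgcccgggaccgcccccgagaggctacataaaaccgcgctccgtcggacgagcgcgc
Of the 33 tested immediate-early genes with a promoter in that table, 3 (9.09%) held a CArG box and 4 (12.1%) the CRE TGACGTCA in those 250 bases, against 1.48% and 3.1% of the 9298 tested genes with a promoter there. A match to either search pattern on 1 strand is also a match on the other, so both strands were covered. Among the 13 of these 33 that fell, 2 held each. Immediate-early genes without a promoter entry, some of which fell, were not searched. Only the exact CRE was sought, so variant forms would be missed. A match is a description of the letters, and neither motif was found in this window for *Fos*, *Fosb*, *Jun* or *Junb*.

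Of 43 immediate-early genes tested, 15 (34.9%) were lower in late MEFs and none was higher, with 25 at an unadjusted *P* under 0.05 and, in DESeq2, 2 higher and 18 lower (median log2 fold change −0.45). The summed level of the list was 4374, 4186, 4249 and 4415 CPM in early and 2511, 2363, 2504 and 2274 CPM in late libraries. *Fos*, a subunit of the AP-1 transcription factor, was at 232, 152, 200 and 143 CPM in early and 8.34, 4.38, 5.65 and 4.98 CPM in late libraries (log2 fold change −4.96, SE 0.24, adjusted *P* = 4.43e-07). Its partner family member *Fosb* was at 74.9, 69.4, 64.1 and 97.9 CPM in early and 1.91, 1.25, 1.12 and 0.997 CPM in late libraries (log2 fold change −5.85, SE 0.30, adjusted *P* = 4.43e-07). For both genes every early library was far above every late one. *Egr1*, a zinc finger factor induced by serum, was at 420, 518, 364 and 427 CPM in early and 52.7, 38.8, 40.3 and 48.2 CPM in late libraries (log2 fold change −3.26, SE 0.16, adjusted *P* = 4.43e-07). The falls of the AP-1 subunits *Jun* (−1.34) and *Junb* (−1.59) were smaller, as were those of *Ier2* (−1.60), *Ier3* (−1.59), *Klf2* (−1.28) and *Egr2* (−1.46). *Zfp36*, which destabilises cytokine mRNAs, fell by 1.67 on the log2 scale. *Dusp1*, a MAP kinase phosphatase, fell by 1.11, whereas *Dusp5* and *Btg2*, named after their values were seen, did not pass (log2 fold changes −0.0023 and −0.45). *Ccn1*, a secreted matrix protein induced by serum, fell by 1.09, from 665 to 815 CPM to 331 to 372 CPM. The calls of *Nr4a1* (log2 fold change −1.17), *Csrnp1* (−1.01) and *Errfi1* (−1.0) were each lost when 1 library was left out, with adjusted *P* values of up to 0.0515 without early library 3, 0.0849 without early library 3 and 0.128 without late library 3. *Atf3* and *Myc*, both stress- or growth-induced factors, did not pass (log2 fold changes 0.20 and −0.35). In the libraries without Y-linked counts 15 were lower and 1 higher (median log2 fold change −0.55). The median was −0.53 in those with them, which held a single late library. In the *S6K1/S6K2* set, described below, 20 of the 43 rose with passage and 1 fell.

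**Figure D2:**
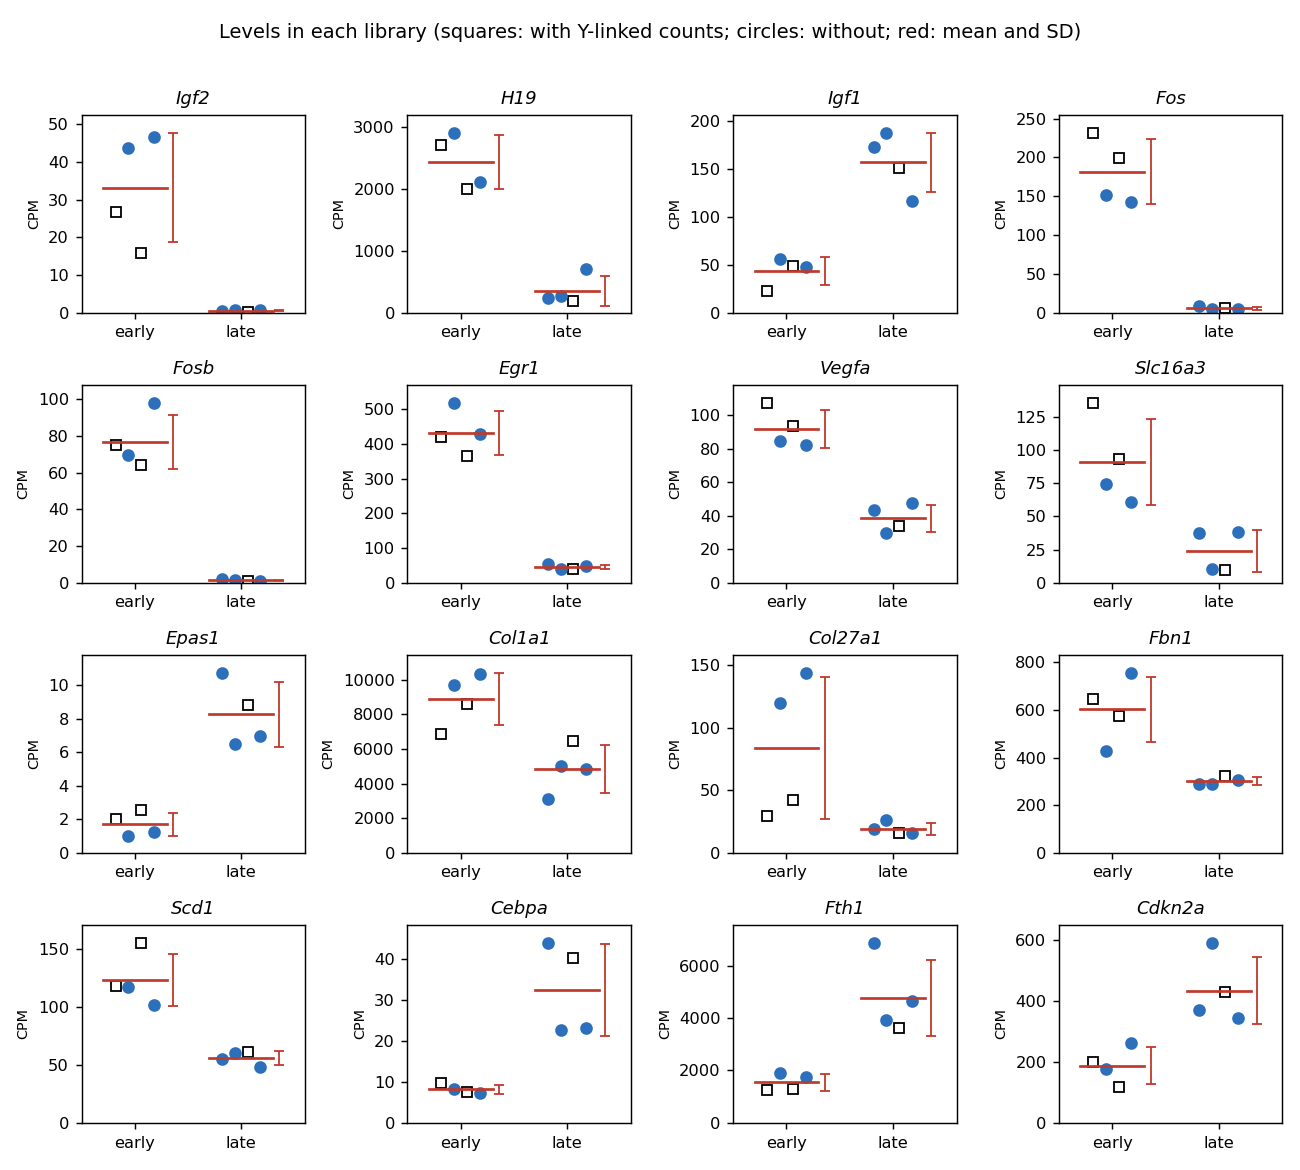
Levels of 16 genes in CPM in each of the 4 early and 4 late WT libraries, with the mean (red line) and SD (red bar) of each group. Open squares are libraries with Y-linked counts and filled circles those without. *Fos*, *Fosb* and *Igf2* are near 0 in all late libraries, at no more than 8.34 CPM, whereas *Igf1*, *Epas1*, *Cebpa* and *Fth1* are higher in every late library than in every early one.

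Of 22 genes of the hypoxia response tested, 7 (31.8%) were lower and 1 was higher in late MEFs (median log2 fold change −0.35). The 7 became 3 without late library 2 and 4 without early library 1 or late library 3. *Vegfa*, the main angiogenic factor of this response, was at 107, 84.7, 93.4 and 82.1 CPM in early and 43.1, 29.5, 33.7 and 47.4 CPM in late libraries (log2 fold change −1.26, SE 0.17, adjusted *P* = 0.000602). *Egln3*, the prolyl hydroxylase that marks HIF proteins for destruction, fell by 1.62 on the log2 scale, and *Ddit4*, an inhibitor of mTORC1, by 0.64. The single rise was in *Epas1*, which encodes the transcription factor HIF-2α, at 2.0021, 1.02, 2.52 and 1.22 CPM in early and 10.713, 6.49, 8.83 and 6.98 CPM in late libraries (log2 fold change 2.26, SE 0.30, adjusted *P* = 0.000454). *Hif1a*, its paralog, went the other way (log2 fold change −0.82, adjusted *P* = 0.0261), as did *Bnip3*, a mitophagy receptor (−1.23, adjusted *P* = 0.0436), *Car12*, a carbonic anhydrase (−1.68, adjusted *P* = 0.031), and *Pgf*, a vascular growth factor (−1.65, adjusted *P* = 0.0234). The calls of these 4 were lost when 1 library was left out, with adjusted *P* values of up to 0.0894, 0.116 and 0.0951 without late library 3 for the first 3 and 0.0613 without early library 3 for *Pgf*. *Adm*, another hypoxia-induced peptide, did not pass (0.40). The late libraries ranked for *Epas1* as they did for summed macrophage markers (12863, 6182, 10614 and 7186 CPM), and the part of macrophages was not tested. Outside the list, *Ndufa4l2* and *Angptl7* were among the 15 largest falls of all genes. *Ndufa4l2*, a mitochondrial protein induced by HIF-1, was at 7.80, 6.21, 5.16 and 1.04 CPM in early and 0.0765, 0.469, 0.447 and 0.914 CPM in late libraries. *Angptl7*, a secreted angiopoietin-like protein, was at 37.6, 13.5, 9.64 and 20.5 CPM in early and 2.53, 0.313, 0.280 and 0.332 CPM in late libraries. In both cases the 4 late libraries were below the 4 early ones, though early library 4 of *Ndufa4l2* was close to the late range.

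In glycolysis, 6 of 31 genes tested (19.4%) were lower and none was higher, with 12 at an unadjusted *P* under 0.05 and, in DESeq2, 3 higher and 7 lower (median log2 fold change −0.39). *Slc16a3*, which exports lactate, was at 135, 74.3, 92.9 and 60.4 CPM in early and 37.3, 10.6, 9.23 and 38.0 CPM in late libraries (log2 fold change −1.94, SE 0.44, adjusted *P* = 0.0132). Its call held without any 1 library but was lost under at least 1 other way of processing. *Slc16a1*, a second monocarboxylate transporter, fell by 1.15 and *Slc2a3*, a high-affinity glucose transporter, fell by 2.06 on the log2 scale. *Eno2* fell by 1.1. *Aldoc* (−1.47) and *Pdk1* (−0.90) passed, but without late library 3 their adjusted *P* values were 0.0599 and 0.089. The main glucose transporter *Slc2a1* (−0.40), the hexokinase *Hk2* (−0.49) and the lactate dehydrogenase *Ldha* (−0.39) did not pass. The direction of the list as a whole depended on the libraries: its median was 0.03 with the Y-linked covariate, 0.27 in the libraries without Y-linked counts (1 higher, 2 lower) and −0.79 in those with them (none higher, 3 lower). Its summed level was 11287 and 8952 CPM in early libraries 1 and 3, which had Y-linked counts, and 6207 and 5579 CPM in early libraries 2 and 4.

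Fibroblasts lay down collagen fibrils, which are trimmed, hydroxylated and cross-linked by dedicated enzymes. Of 11 fibrillar collagen genes 5 (45.5%) were lower and none higher, with 7 at an unadjusted *P* under 0.05 and, in DESeq2, none higher and 6 lower, and all 11 log2 fold changes were below 0 (median −0.88). The 5 became 2 without early library 2, early library 4 or late library 1, 3 without late library 2, 3 or 4, and 0 in the libraries with Y-linked counts. Their summed level was 20712, 29165, 22950 and 27733 CPM in early and 9271, 15220, 16899 and 14557 CPM in late libraries, so the groups did not overlap. *Col27a1*, a collagen of developing cartilage, was at 29.7, 120, 42.2 and 144 CPM in early and 18.7, 26.4, 15.6 and 16.2 CPM in late libraries (log2 fold change −2.12, SE 0.44, adjusted *P* = 0.00829). *Col5a3*, which helps to set fibril width, was at 56.7, 72.5, 79.4 and 62.1 CPM in early and 22.9, 26.6, 20.5 and 19.8 CPM in late libraries (log2 fold change −1.59, SE 0.16, adjusted *P* = 6.78e-05). The spread among early libraries was much wider for *Col27a1* than for *Col5a3*. The chains of type I collagen, the main fibril of skin and bone, were at 6884, 9696, 8588 and 10340 CPM (*Col1a1*) and 6936, 14082, 7579 and 12340 CPM (*Col1a2*) in early libraries. In late libraries they were at 3091, 5019, 6479 and 4833 CPM and at 3368, 6009, 5596 and 5328 CPM. Neither gene overlapped between groups, yet with log2 fold changes of −0.87 and −1.01 their adjusted *P* values were 0.0444 and 0.0295, and without a single library these rose to 0.101 (late library 1) and 0.0799 (early library 2). *Col11a1* passed on the same terms (−0.91, adjusted *P* = 0.0418, and 0.131 without late library 3). *Col3a1* did not pass (−0.88, adjusted *P* = 0.0915). Of 19 other collagens, 1 was lower, *Col9a1* of cartilage, at less than 1 CPM in every library (adjusted *P* = 0.0835 without late library 1).

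Outside the collagens the matrix changed in both directions. Of 46 matrix glycoproteins, 7 (15.2%) were lower and 1 was higher (median log2 fold change −0.16). The 1 became 3 without early library 3, 2 without early library 1 or late library 1, 3 or 4, and 0 without early library 4. *Fbn1*, which forms the microfibrils that hold elastin and latent TGF-β, was at 648, 430, 575 and 756 CPM in early and 291, 289, 323 and 307 CPM in late libraries (log2 fold change −0.99, SE 0.21, adjusted *P* = 0.00871). The late libraries were close to one another and below the whole early range. The embryonic *Fbn2* was lower as well (−1.76, adjusted *P* = 0.0377), though without late library 3 its adjusted *P* was 0.111. *Mfap5* of the same microfibrils fell by 1.36 and *Matn2*, an adaptor of filament networks, by 1.24 on the log2 scale. *Fn1*, *Postn* and *Tnc*, fibronectin and other wound-matrix proteins, did not pass (log2 fold changes 0.04, −0.11 and 0.56). Among proteoglycans 3 of 24 were higher and 4 lower, and the 3 became 1 without early library 2 or 4 or late library 2 or 3. *Gpc3*, an embryonic heparan sulfate proteoglycan, fell by 1.68 and *Gpc1* by 1.42, and *Cemip*, which breaks down hyaluronan, rose by 1.35. The call of *Gpc3* held without any 1 library but was lost under at least 1 other way of processing. *Plod2*, a collagen lysyl hydroxylase, fell by 0.98, and of 20 collagen-processing genes 3 were lower and none higher, with 4 at an unadjusted *P* under 0.05 and, in DESeq2, none higher and 4 lower, and the 3 became 1 without late library 3. The other two were *Loxl4* (−1.41) and *Plod1* (−0.75), whose adjusted *P* values were up to 0.0565 (without late library 3) and 0.116 (without early library 1). *Lox* and *Serpinh1* did not pass (0.33 and −0.32). Among proteases, *Adam8* (1.91) and the macrophage elastase *Mmp12* (2.05) were higher, and *Adamts4*, an aggrecanase, was lower (−1.18), in a list of 30 with 2 higher and 3 lower, the 3 becoming 1 without early library 3 or late library 4. Both proteases that rose are expressed by macrophages. Of 30 contractile and myofibroblast genes none passed in edgeR, 7 had an unadjusted *P* under 0.05, and DESeq2 called 6 higher and 1 lower. *Acta2*, smooth muscle actin, was at 2584 to 5053 CPM in early and 4541 to 6493 CPM in late libraries (0.54), and *Tagln* at 2426 to 3528 CPM and 4358 to 5184 CPM (0.66, adjusted *P* = 0.0515).

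In the list of fatty acid genes 6 of 38 (15.8%) were lower and 2 higher (median log2 fold change −0.19, and 0.08 in the libraries without Y-linked counts, with 4 lower and 6 higher). Without early library 1 the list had 5 lower and 6 higher, and without late library 2 or 3 the 6 lower became 3. *Scd1*, the stearoyl-CoA desaturase that makes oleate, was at 119, 117, 156 and 102 CPM in early and 55.6, 60.2, 60.9 and 47.9 CPM in late libraries (log2 fold change −1.14, SE 0.17, adjusted *P* = 0.00094). Its paralog *Scd2* fell by 1.12 and the elongase *Elovl6* by 1.32 on the log2 scale. The desaturases *Fads1* (−0.74) and *Fads2* (−0.90) also passed, and without late library 3 their adjusted *P* values were 0.0782 and 0.0707. *Cebpa*, an adipogenic and myeloid transcription factor, was at 9.64, 8.18, 7.51 and 7.21 CPM in early and 43.8, 22.6, 40.034 and 23.012 CPM in late libraries (log2 fold change 1.99, SE 0.23, adjusted *P* = 0.000198). *Pparg*, the nuclear receptor of adipocytes and of lipid-handling macrophages, rose by 1.69, from 1.30 to 2.42 CPM to 4.74 to 7.11 CPM. The adipocyte marker *Fabp4* did not pass (−0.30). Cholesterol synthesis showed 1 of 27 genes higher, the cholesterol exporter *Abca1* (0.81), and 1 lower.

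Among genes of the ATF4 response, which handles amino acid shortage and folate metabolism, 7 of 34 (20.6%) were lower and none higher, with 13 at an unadjusted *P* under 0.05 and, in DESeq2, none higher and 8 lower (median log2 fold change −0.31). *Stc2*, a secreted glycoprotein, was at 33.4, 21.4, 21.7 and 25.4 CPM in early and 14.998, 4.92, 4.36 and 7.14 CPM in late libraries (log2 fold change −1.70, SE 0.39, adjusted *P* = 0.0138). The groups were separate, with late library 1 above the other late libraries. The glutamine transporter *Slc1a5* fell by 1.03. The anchors of the response, *Asns* (−0.25) and *Ddit3* (0.17), did not pass. The 7 became 3 without early library 3 and 4 without early library 1 or late library 1, 2 or 3, and 1 in the libraries with or without Y-linked counts.

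Nuclear genes of the respiratory chain showed 1 of 80 higher and none lower (*Sdhc* of complex II, 0.55, with an adjusted *P* of 0.0762 without late library 2), 9 at an unadjusted *P* under 0.05 and, in DESeq2, 6 higher and none lower (median log2 fold change 0.12). With the Y-linked covariate 5 were higher and 5 lower, and in the libraries without Y-linked counts 5 were higher and 8 lower. The 7 genes of the mitochondrial genome that were tested all had log2 fold changes below 0 (median −0.74), and 1 passed, *mt-Nd2* (−0.93, adjusted *P* = 0.0279, and 0.0683 without early library 1). Their summed level was 11594 and 9532 CPM in early libraries 1 and 3 and 5399 and 5919 CPM in early libraries 2 and 4, against 5563, 4956, 4241 and 5166 CPM in late libraries. Only the early libraries with Y-linked counts were above the late ones by much, and in the libraries without them the median was −0.18. Ribosomal protein genes had 2 of 80 higher, among them *Rpl15* (0.51, adjusted *P* = 0.0755 without late library 2), and none lower, 4 at an unadjusted *P* under 0.05 and, in DESeq2, 2 higher and 1 lower (median −0.06). The 2 became 0 without early library 2 or 4 or late library 2, 3 or 4, and 1 without early library 3 or late library 1, and with the Y-linked covariate 3 were higher and 11 lower. Ribosome biogenesis had 4 of 48 lower, among them the snoRNP protein *Nop56* (−0.54, adjusted *P* = 0.0957 without late library 2), and the 4 became 2 without any 1 early library and 1 without late library 1, 2 or 3.

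Antioxidant, glutathione and iron genes showed 6 of 36 higher (16.7%, and 3 without early library 2) and none lower, with 18 at an unadjusted *P* under 0.05 and, in DESeq2, 10 higher and none lower (median log2 fold change 0.27). *Fth1*, the ferritin heavy chain that stores iron, was at 1266, 1891, 1292 and 1742 CPM in early and 6860, 3938, 3631 and 4651 CPM in late libraries (log2 fold change 1.62, SE 0.25, adjusted *P* = 0.00142). Every late library was well above the early range, late library 1 most of all. The light chain *Ftl1* also passed (1.06, adjusted *P* = 0.0418, and 0.102 without late library 1). *Cbr3*, a carbonyl reductase induced by NRF2, was at 12.2 to 14.7 CPM in early and 30.3 to 31.9 CPM in late libraries (log2 fold change 1.24, SE 0.13). The peroxide-removing enzymes *Cat* (0.58) and *Prdx6* (0.78) were higher, with adjusted *P* values of 0.0545 and 0.0543 without early library 2. The best-known NRF2 targets *Nqo1* (0.29) and *Hmox1* (0.24) did not pass. Ferritins are abundant in macrophages, whose markers rose in the same libraries, and their part here was not tested. Protein folding genes had 5 of 29 higher (17.2%, and 2 without early library 2 and 3 without late library 1, 2 or 3) and none lower, with 8 at an unadjusted *P* under 0.05 and, in DESeq2, 7 higher and none lower, led by the small heat shock proteins *Cryab* (1.2) and *Hspb1* (1.01, adjusted *P* = 0.0703 without late library 1), while the chaperone BiP, *Hspa5*, did not pass (−0.05).

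Of 73 genes of mitosis tested, 67 had a log2 fold change below 0 (median −0.45), 7 (9.59%) were lower and none was higher, with 18 at an unadjusted *P* under 0.05 and, in DESeq2, none higher and 10 lower. *Hmmr*, which organises spindle poles, was at 34.4, 51.8, 43.4 and 43.9 CPM in early and 21.8, 18.1, 13.2 and 27.7 CPM in late libraries (log2 fold change −1.1, SE 0.25, adjusted *P* = 0.0119). The groups did not overlap. The 7 became 1 without late library 2 or 3, 2 without early library 2 or 4, 4 without late library 1 and 18 without late library 4. The condensin subunits *Smc2* (−1.13) and *Smc4* (−1.01), the kinetochore proteins *Cenpf* (−1.11) and *Cenpe* (−1.06), and the kinesin *Kif20b* (−1.09) lost their calls when 1 library was left out, with adjusted *P* values of up to 0.0704, 0.126, 0.060, 0.101 and 0.0692, in each case without late library 3 except *Smc4*, where it was early library 2. *Mki67*, the usual mark of cycling cells, was at 70.3, 108, 96.8 and 104 CPM in early and 61.8, 42.0, 40.6 and 95.8 CPM in late libraries (−0.66, adjusted *P* = 0.147). Late library 4 was within the early range, and the other 3 late libraries were below it. *Top2a* (−0.87, adjusted *P* = 0.0673) and *Ccnb1* (−0.38) did not pass either. DNA replication genes had 1 of 57 lower (*Dbf4*, −0.71, adjusted *P* = 0.0706 without late library 3) and none higher, with 8 at an unadjusted *P* under 0.05 and, in DESeq2, none higher and 3 lower, and without late library 4 the 1 became 6.

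Of 20 cyclin-dependent kinase inhibitors and RB-pathway genes, 1 was higher and none lower, with 3 at an unadjusted *P* under 0.05 and, in DESeq2, 2 higher and none lower. The 1 was *Cdkn2a*, at 199, 176, 117 and 262 CPM in early and 371, 590, 429 and 343 CPM in late libraries (log2 fold change 1.2, SE 0.27, adjusted *P* = 0.0137), with p16 and p19Arf counted together. *Cdkn1a*, which encodes p21, was at 513 to 662 CPM in early and 440 to 721 CPM in late libraries (0.05), and *Cdkn2b* did not pass (−0.03). *Ccnd1*, cyclin D1, was at 0.75 (adjusted *P* = 0.0736). Among p53 targets 3 of 36 (8.33%) were higher and none lower, with 6 at an unadjusted *P* under 0.05 and, in DESeq2, 3 higher and none lower. *Sesn1*, a stress-induced inhibitor of mTORC1, was at 14.0, 13.9, 16.3 and 10.508 CPM in early and 29.3, 28.3, 42.4 and 23.9 CPM in late libraries (log2 fold change 1.18, SE 0.20, adjusted *P* = 0.00242). *Mdm2* did not pass (0.09). Chromatin genes linked to senescence gave 1 of 27 lower (*Smarca1*, a nucleosome remodeller, with an adjusted *P* of 0.133 without late library 3) and none higher. Of the 27, 11 had an unadjusted *P* under 0.05, and DESeq2 called 1 higher and 5 lower. *Lmnb1*, lamin B1, was at 30.4 to 36.4 CPM in early libraries and 21.1, 18.7, 22.7 and 43.5 CPM in late libraries, so that late library 4 was above every early library and the other 3 below (−0.28, adjusted *P* = 0.553). *Glb1*, the lysosomal enzyme behind the β-galactosidase stain of senescent cells, did not pass (−0.11).

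Of 56 lysosome and autophagy genes, 15 (26.8%) were higher and none lower, with 26 at an unadjusted *P* under 0.05 and, in DESeq2, 24 higher and none lower (median log2 fold change 0.38). The 15 became 8 without late library 1. *Lipa*, the acid lipase, was at 63.8, 73.2, 73.0 and 68.7 CPM in early and 197, 180, 205 and 121 CPM in late libraries (log2 fold change 1.33, SE 0.16, adjusted *P* = 0.000273). *Atp6v0d2*, a proton pump subunit of macrophages and osteoclasts, rose by 3.19, from 0.219 to 0.521 CPM to 2.16 to 4.14 CPM. The cathepsins *Ctsd* (1.05) and *Ctsb* (0.77) passed, but without late library 1 their adjusted *P* values were 0.0964 and 0.0822. The lysosomal membrane protein *Lamp1* did not pass (0.32). Among the macrophage markers in the same libraries, *Lyz2*, lysozyme, was at 468, 409, 586 and 203 CPM in early and 6394, 3168, 6009 and 3724 CPM in late libraries (log2 fold change 3.53, SE 0.35). *Apoe*, a lipid carrier outside that list, was at 188, 102, 158 and 101 CPM and 5172, 1134, 1760 and 2569 CPM (log2 fold change 4.28, SE 0.45, adjusted *P* = 9.42e-05). The order of the late libraries differed between these genes, with late library 1 highest in both and late library 3 near it for *Lyz2* but not for *Apoe*. Among the 15 largest rises of all genes were the chemokine receptor *Cxcr4* (4.61), the myeloid receptors *Clec12a* (4.23), *Ptafr* (4.32) and *Lilrb3* (3.77), the lysosomal channel *Mcoln3* (4.70), the neuropeptide *Cck* (4.08), and *Hpgd*, which inactivates prostaglandins (3.85). *Cck* was at 6.38, 3.36, 10.496 and 7.38 CPM in early and 44.2, 149, 213 and 61.3 CPM in late libraries.

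Of 18 complement genes 8 (44.4%) were higher and none lower, with 9 at an unadjusted *P* under 0.05 and, in DESeq2, 8 higher and none lower (median log2 fold change 0.64, and 0.59 without the 3 C1q genes that are also macrophage markers). These 3 were among the 8, and the part of macrophages in the list was not tested. *C3*, the central component, was at 1.001, 1.31, 2.87 and 1.30 CPM in early and 16.8, 6.10, 8.78 and 7.56 CPM in late libraries (log2 fold change 2.58, SE 0.43, adjusted *P* = 0.00229). Among chemokines and cytokines 11 of 45 (24.4%) were higher and 4 (8.89%) lower, and the 4 became 2 without early library 1, 2 or 3 or late library 3. *Cxcl16*, a membrane-bound chemokine, rose by 2.67 and *Il15*, which sustains lymphocytes, by 1.58 on the log2 scale. The neutrophil chemokine *Cxcl2* fell, from 5.01, 6.21, 6.48 and 6.17 CPM to 1.76, 0.469, 0.783 and 0.415 CPM (log2 fold change −2.78, SE 0.44, adjusted *P* = 0.00154). *Il6* (−0.25), *Ccl2* (0.94, adjusted *P* = 0.0625) and *Csf1* (0.62), the growth factor of macrophages, did not pass. Of 48 interferon-induced genes, 12 (25.0%) were lower and 1 higher (median log2 fold change −0.46), and the 12 became 2 without early library 2, 4 without late library 3, 5 without late library 2 and 7 without early library 3 or late library 4. *Ifit1*, an antiviral RNA-binding protein, was at 76.6, 382, 100 and 161 CPM in early and 64.6, 37.4, 17.1 and 39.1 CPM in late libraries (log2 fold change −2.19, SE 0.51, adjusted *P* = 0.0158). The call of *Ifit1* held without any 1 library but was lost under at least 1 other way of processing. Early library 2 was the highest for *Ifit1* and for *Isg15*, at 100, 328, 175 and 86.4 CPM in early and 67.3, 62.2, 19.7 and 50.2 CPM in late libraries (−1.79), and without early library 2 the log2 fold change of *Isg15* was −1.28 with an adjusted *P* of 0.0684. The single rise was in *H2-D1*, a class I antigen-presenting molecule (1.34). In the libraries without Y-linked counts 2 genes of this list were lower and 2 higher, and in those with them 10 were lower and 1 higher.

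**Figure D3:**
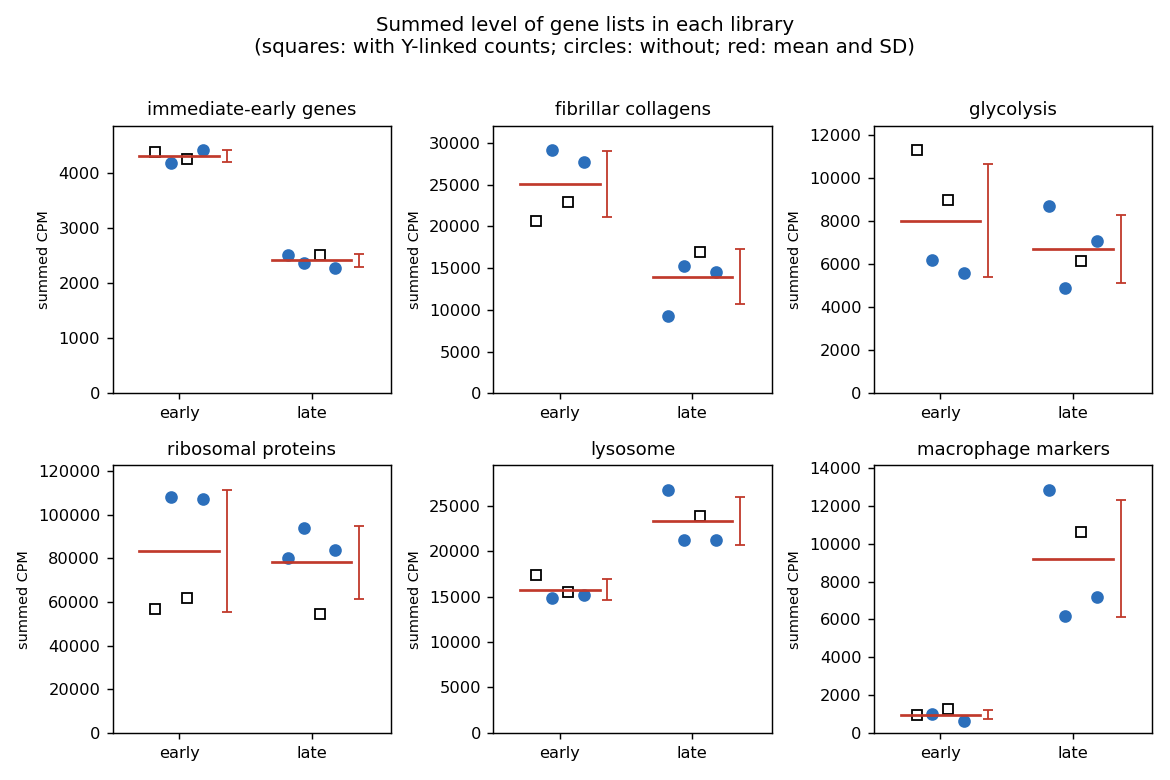
Summed level of 6 gene lists in CPM in each of the 4 early and 4 late WT libraries, with the mean (red line) and SD (red bar). Open squares are libraries with Y-linked counts and filled circles those without. Immediate-early genes and fibrillar collagens are lower, and lysosome genes and macrophage markers higher, in every late library than in every early one, whereas glycolysis and ribosomal protein genes overlap and separate the libraries with Y-linked counts within the early group.

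Of 8 epithelial and mesothelial markers tested, 4 were lower and none higher, with 6 at an unadjusted *P* under 0.05 and, in DESeq2, none higher and 5 lower (median log2 fold change −1.42). The 4 became 2 without early library 1 or late library 1 or 3. *Msln*, mesothelin, was at 18.5, 6.35, 11.7 and 16.1 CPM in early and 1.45, 0.547, 1.12 and 0.665 CPM in late libraries (log2 fold change −3.77, SE 0.40, adjusted *P* = 8.78e-05). *Upk3b*, a second mesothelial gene, fell by 2.94, and the other two were *Krt7* (−1.78) and *Krt19* (−1.32), whose adjusted *P* values were up to 0.0638 (without early library 1) and 0.112 (without late library 3). Of 8 endothelial markers 3 were lower and 1 higher, and the 1 became 0 without early library 1 or late library 1 or 3. *Erg*, a transcription factor of endothelium and cartilage, was at 14.8, 21.0, 7.51 and 25.9 CPM in early and 1.30, 1.17, 0.447 and 2.33 CPM in late libraries (log2 fold change −3.74, SE 0.48, adjusted *P* = 0.000389). The others were *Egfl7* (−1.25), *Kdr* (−1.29, adjusted *P* = 0.122 without early library 4) and, higher, *Vwf* (2.15, adjusted *P* = 0.0772 without late library 3), and the defining endothelial genes *Pecam1* and *Cdh5* were below the filter. Of 13 cartilage and bone markers, 4 were lower and none higher, with 7 at an unadjusted *P* under 0.05 and, in DESeq2, none higher and 5 lower (median −1.2). The 4 became 1 without early library 2, 2 without early library 1 or late library 2, 3 or 4, and 0 in the libraries with Y-linked counts. *Runx2*, the factor of bone precursors, was at 39.1, 74.9, 43.5 and 70.8 CPM in early and 18.9, 21.4, 18.3 and 21.4 CPM in late libraries (log2 fold change −1.51, SE 0.21, adjusted *P* = 0.000657). The late libraries were tight and the early ones split by the presence of Y-linked counts. *Scx* of tendon precursors (−1.45) and *Sox6* of cartilage (−2.16) had adjusted *P* values of up to 0.0747 (without early library 2) and 0.0718 (without late library 3), and *Sox9* did not pass (−0.19). Among 9 skeletal muscle markers 1 was higher and 1 lower, with *Myod1* and *Myog* below the filter, and 10 neural and glial markers gave none in edgeR, 3 at an unadjusted *P* under 0.05 and, in DESeq2, 1 higher and 1 lower. Fibroblast markers gave 2 of 16 lower, *Fbn1* and *Mfap5*.

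Transcription factors that pattern the embryonic mesenchyme were lower in 10 of 56 cases (17.9%) and higher in none, with 19 at an unadjusted *P* under 0.05 and, in DESeq2, 1 higher and 14 lower (median log2 fold change −0.34). The 10 became 5 without late library 3 and 6 without early library 2. *Lhx9*, a limb and gonad factor, was at 55.3, 62.7, 29.9 and 66.2 CPM in early and 21.7, 11.4, 8.39 and 16.8 CPM in late libraries (log2 fold change −1.88, SE 0.32, adjusted *P* = 0.00236). *Lmx1b*, which sets the dorsal side of the limb, fell by 1.51 and *Meox2*, of somites, by 2.19 on the log2 scale. *Prrx1* (−0.62) and *Twist1* (−0.83), general limb mesenchyme factors, passed, with adjusted *P* values of 0.0775 without late library 1 and 0.069 without late library 3. Of 31 Hox genes, which keep the memory of body position, 3 (9.68%) were lower and none higher, with 12 at an unadjusted *P* under 0.05 and, in DESeq2, 3 higher and 5 lower, and 22 of the 31 log2 fold changes were above 0 (median 0.26). The 3 became 7 without late library 1 and 0 in the libraries with Y-linked counts, and 3 were higher without late library 4, 2 without early library 3 and 1 without early library 1. *Hoxa11*, of the forearm and lower leg, was at 31.4, 13.1, 14.7 and 10.4 CPM in early and 5.51, 3.59, 6.04 and 3.24 CPM in late libraries (log2 fold change −1.92, SE 0.38, adjusted *P* = 0.00654). *Hoxa9* fell by 1.05, and *Hoxd12*, of the digits, passed at −2.93 (adjusted *P* = 0.0659 without late library 2).

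Some genes of signalling between cells also changed. *Pdgfb*, a mitogen of mesenchymal cells, rose from 3.32, 1.17, 1.55 and 1.30 CPM to 16.4, 7.42, 14.0 and 8.97 CPM (log2 fold change 2.64, SE 0.36, adjusted *P* = 0.000598). The late libraries ranked for *Pdgfb* as they did for summed macrophage markers (12863, 6182, 10614 and 7186 CPM), and the part of macrophages was not tested. *Fgf10*, a mesenchymal factor for epithelial budding, rose by 1.67, and *Areg*, a ligand of the EGF receptor, fell by 2.45. In the Notch, VEGF, PDGF and FGF list 9 of 38 (23.7%) were lower and 4 (10.5%) higher. The 4 became 2 without early library 2 or 4 or late library 2 or 3, and in the libraries with Y-linked counts 2 were lower and 1 higher. In the Wnt and Hedgehog list 3 of 29 (10.3%) were lower and 1 (3.45%) higher. The ligands *Wnt5b* (−1.73) and *Wnt9a* (−1.15) and the Hedgehog effector *Gli3* (−0.84, adjusted *P* = 0.111 without early library 4) fell. The secreted Wnt antagonist *Frzb* rose by 1.96. Of 34 TGF-β and BMP genes, 2 (5.88%) were higher and 3 (8.82%) lower, against 6.96% and 5.97% of all genes. The 3 became 0 without early library 4 or late library 2 and 1 without early library 1 or late library 3 or 4, and the 2 became 4 without early library 3. *Fst*, follistatin, which traps activins, was at 34.1, 28.3, 48.8 and 47.2 CPM in early and 98.5, 184, 178 and 89.2 CPM in late libraries (log2 fold change 1.80, SE 0.28, adjusted *P* = 0.00149). *Tgfb1* did not pass (0.51).

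The *S6K1/S6K2* set passed through the same passages, and its 8 WT libraries share none with those above. According to the study, WT MEFs of that set came from WT mothers obtained earlier in the breeding. Passage and set thus cannot be told apart from differences in culture, harvest or breeding. In a fit of all 22 libraries the effect of passage differed between the sets in 106 of 14886 genes (0.712%), 38 with a larger and 68 with a smaller value in the *S6K1* set. Of the 106, 28 were lower with passage in the *S6K1* set and higher in the *S6K1/S6K2* set, each past the threshold, and 15 the reverse. The immediate-early genes carried 20 of these differences among the 43 tested, and in the *S6K1/S6K2* set 20 of the 43 rose with passage and 1 fell. *Fos* in the *S6K1/S6K2* set was at 5.04, 3.62, 4.88 and 7.53 CPM in early and 240, 267, 161 and 283 CPM in late libraries (log2 fold change 5.51), against −4.96 here, a difference of −10.46 (SE 0.38, adjusted *P* = 2.28e-13). *Fosb* differed by −11.35 (adjusted *P* = 1.46e-12) and *Egr1* by −4.81 (adjusted *P* = 3.64e-10). In levels, the early *S6K1* and the late *S6K1/S6K2* libraries were the high ones for *Fos* and *Fosb*, and the late *S6K1* and early *S6K1/S6K2* libraries were the low ones. *Cxcl2* followed the same arrangement, at 0.130 to 0.227 CPM in early and 2.55 to 7.40 CPM in late *S6K1/S6K2* libraries (difference −7.56, adjusted *P* = 1.25e-06), and *Hes1*, a Notch target, differed by −2.83 (adjusted *P* = 0.00127). *Runx2* fell here and did not pass in the other set (−0.26), with a difference of −1.25 (adjusted *P* = 0.0125), and *Ptafr* rose in both but by 2.78 more here (adjusted *P* = 0.0323).

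In most of the other lists few or no differences between the sets passed, which does not show that the effects were equal. *Igf2* fell by 4.37 on the log2 scale in the *S6K1/S6K2* set and *Msln* fell by 5.62, and *Igf1* rose by 2.51 and *Epas1* by 2.54. The fibrillar collagens had 4 of 11 lower there, the hypoxia list 6 of 22 lower and 1 higher, and the macrophage markers 25 of 27 higher. Mitosis genes were lower in 33 of 73 in the *S6K1/S6K2* set against 7 of 73 here, and interferon-induced genes in 28 of 49 against 12 of 48, and the difference of these counts was not tested. The 106 differences became 222 with DESeq2.

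**Figure D4:**
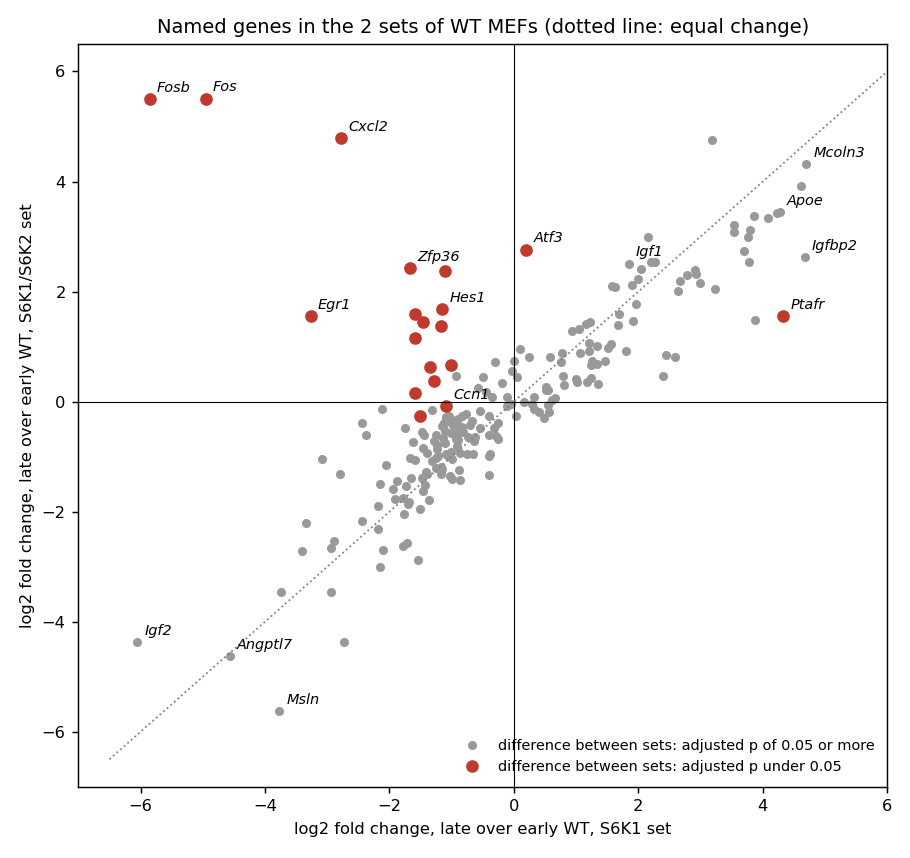
Log2 fold changes of late over early WT MEFs for the named genes in the *S6K1* set (horizontal) and the *S6K1/S6K2* set (vertical), with a dotted line of equal change. Red points are genes whose difference between the sets had an adjusted *P* value under 0.05, and grey points the others. *Fos*, *Fosb*, *Egr1* and *Cxcl2* lie in the upper left, lower with passage in one set and higher in the other, whereas *Igf2*, *Msln* and *Apoe* lie where the direction is shared.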

How the data were processed

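Gene-level read counts of 22 libraries were used as the authors deposited them, with no normalization. Messenger RNA was sequenced single-end. The study's methods name CASAVA, TopHat, the mm9 genome and HTSeq, whereas the submitters' processing notes name CASAVA, STAR 2.7.1a, DESeq2 1.28.1 and mm10; the libraries were stranded, but the strand option of the counting is not given in the sources used here, so overlapping antisense genes are uncertain. The 32589 of 55401 identifiers with a symbol held 96.98% of the counts. Of all 55401 identifiers, with or without a symbol, 14132 passed filterByExpr in 11 libraries (3 groups). They were scaled by TMM and tested with edgeR 4.0.16 (quasi-likelihood, robust, R 4.3.3) and Benjamini-Hochberg adjustment at 0.05. The difference between the sets was tested as an interaction on 22 libraries. Replicates were numbered in accession order, and no pair agreed within sampling noise. Alternatives were DESeq2 1.42.0, RLE scaling, no filter, other sets of libraries, a Y-linked covariate and leaving out each library. The 2 fits split by Y-linked counts were added after seeing the data. The test was checked on simulated data. Named genes were the anchors of 47 lists, up to 4 more per list by size of change, and the 15 largest rises and falls with no overlap and at least 5 CPM. *Egr2*, *Ier3*, *Klf2*, *Ccn1*, *Csrnp1*, *Errfi1*, *Ddit4*, *Hif1a*, *Eno2*, *Pdk1*, *Cemip*, *Fads1*, *Slc1a5*, *Cat*, *Smc4*, *Cenpe*, *Kif20b*, *Cxcl16*, *Il15*, *H2-D1*, *Tgfb1*, *Hes1*, *Dusp5* and *Btg2* were named after their values were seen. The comparison and the lists were chosen with earlier results of these data known. Some genes are not reported here.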

Additional observations from a re-analysis of the deposited data

Results flagged for a closer look

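Among 442 groups of 4 libraries checked over the genes examined, 26 held a library that stood apart from the other 3 by Dixon's criterion, which chance gives in about 1 group in 20. In glucose, hypoxia and imprinted genes these were *H19* in late library 4 (707 CPM), *Slc2a1* in early library 1 (182 CPM), *Slc2a3* in late library 1 (3.83 CPM), *Aldoc* in early library 4 (1.3 CPM), *Egln3* in late library 1 (7.35 CPM), *Car12* in early library 1 (7.64 CPM) and *Angptl7* in late library 1 (2.53 CPM). In matrix genes they were *Col9a1* in early library 4 (0.0868 CPM) and *Gpc3* in early library 3 (88.3 CPM). In lipid, redox and chromatin genes they were *Scd2* in early library 1 (776 CPM), *Fads2* in early library 3 (117 CPM), *Pparg* in early library 1 (2.42 CPM), *Pparg* in late library 2 (7.11 CPM), *Prdx6* in late library 2 (280.1 CPM), *Lmnb1* in early library 3 (36.4 CPM), *Lmnb1* in late library 4 (43.5 CPM), *Hmga2* in early library 4 (993 CPM) and *Hmga2* in late library 1 (446 CPM). In the remaining genes they were *C3* in early library 3 (2.87 CPM), *Cxcr4* in early library 4 (0.261 CPM), *Iigp1* in early library 2 (20.4 CPM), *Egfl7* in late library 2 (9.46 CPM), *Prrx1* in early library 2 (590.4 CPM), *Meox2* in late library 2 (1.64 CPM), *H2-D1* in late library 1 (315 CPM) and *Nop56* in early library 4 (121 CPM).

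For 19 of the genes examined, the effect of passage differed between the *S6K1* and the *S6K1/S6K2* sets in a test of the difference itself. The differences of the log2 fold changes, *S6K1* set minus *S6K1/S6K2* set, were *Fos* (−10.46), *Fosb* (−11.35), *Egr1* (−4.81), *Junb* (−3.18), *Jun* (−1.97), *Ier2* (−2.74), *Ier3* (−1.75), *Zfp36* (−4.09), *Dusp1* (−3.48), *Nr4a1* (−2.54), *Klf2* (−1.66), *Egr2* (−2.90), *Csrnp1* (−1.67), *Atf3* (−2.56), *Ccn1* (−1.0), *Hes1* (−2.83), *Ptafr* (2.78), *Cxcl2* (−7.56) and *Runx2* (−1.25).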

How the results depend on the processing

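Of 221 genes examined one by one, 170 passed, of which 97 passed in each of 14 other settings in which they were tested (the 2 splits by Y-linked counts aside), 73 were lost in at least 1 and 0 reversed direction. A gene removed by the filter on low counts in a setting was not counted as lost there. DESeq2 lost 0 of the 170, all 22 libraries 2, RLE scaling 5, the Y-linked covariate 6, no filter 27 and the 8 WT libraries alone 34. The genes that passed were 3267 with the covariate (1644 higher, 1623 lower) and 406 in the libraries with Y-linked counts (291 higher, 115 lower), and 493 were lower with the 8 WT libraries alone. Leaving out each library gave 1223 to 1749 genes that passed, 774 to 1016 higher and 428 to 733 lower, and 78 to 118 differences between the sets, against 222 with DESeq2. The cause of these shifts was not tested. No paired analysis was possible because the labels give no replicate numbers shared between early and late libraries. At these depths 3 counts were 0.173 to 0.248 CPM, which limits genes near that level.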

Other observations

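*Xist*, the RNA that silences an X chromosome, was lower in late than in early libraries among the 5 without Y-linked counts, with a log2 fold change of −1.53 (SE 0.17, adjusted *P* = 0.00317 in edgeR, 2 early and 3 late libraries), a comparison chosen after seeing the data.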
